A study of Mus musculus with 6 samples.

Results

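Integrins are the receptors by which cells hold on to the extracellular matrix, and 46 genes of integrin subunits and of the proteins that gather on their cytoplasmic tails were followed in mouse aortas with a single intact copy of *Npr1* (*Npr1*+/-) and in those of wild type (WT) mice. The genes were chosen by family, as 17 alpha subunits, 7 beta subunits and 22 adhesion complex proteins (talins, vinculin, kindlins, the ILK, PINCH and parvin proteins, paxillin and its relatives, focal adhesion kinases and tensins), and the subunits alpha 6 and beta 4 were not among them. All 46 were found by NCBI gene identifier among the 18191 genes of the expression table. Whole aortas of male mice were sequenced as bulk RNA in 3 libraries of WT and 3 libraries of mice heterozygous for a knockout of *Npr1*, a genotype labelled NPR1+/- and made by CRISPR-Cas9. The product of *Npr1* is a membrane receptor that makes cyclic GMP when natriuretic peptides of the heart bind it. No other allele, agent or diet is named for these mice, and their age and strain are not given in the sources used here. The allele is not limited to a cell type, and the libraries are numbered 1 to 3 within each genotype. Whether each library came from 1 mouse or from a pool is not stated, so the p-values measure the spread between these libraries alone.

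An integrin is a pair of 1 alpha and 1 beta subunit, and the alpha subunit largely sets which matrix protein it binds. Its short tails carry no enzyme, so talin and kindlin bind the beta tail, switch the receptor on and tie it to actin, and vinculin strengthens that tie under tension. Around them the ILK, PINCH and parvin complex, paxillin, focal adhesion kinase and the tensins pass the state of the adhesion on to the cytoskeleton and to signaling. Smooth muscle of the arterial wall is known for dense actin-anchoring plaques built from these proteins, endothelium rests on a basement membrane through them, and leukocytes and platelets use subunits of their own.

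The level of *Npr1* itself was 112, 153 and 152 FPKM (fragments mapped, scaled for transcript length and library size) in the WT libraries, in the order of their numbers. In the *Npr1*+/- libraries it was 70.4, 109.9 and 133 FPKM. The genotypes overlapped, since the third *Npr1*+/- library exceeded the first WT library, while the *Npr1*+/- library was the lower one at each of the 3 replicate numbers. In the fit the log2 fold change came to -0.41 ± 0.27 (standard error), with a Benjamini-Hochberg adjusted p of 0.999 in edgeR's quasi-likelihood test, and the exact two-sided permutation p was 0.2. With the replicate number as a block it was -0.44 ± 0.15, and the unadjusted p of the quasi-likelihood test was 0.0221, where it was 0.178 without the block (adjusted p = 0.311 with it). Whether these reads cover the edited bases is not known. In what follows, a value after ± is the standard error for log2 fold changes and the SD of 3 libraries for levels, and values by library are in the order of the numbers 1 to 3.

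Both libraries numbered 1 stood apart from the other 4 over all tested genes. The first principal component of all tested genes held 59.3% of the variance and placed WT 1 at -31.21 and *Npr1*+/- 1 at -69.99, with the others between 14.48 and 36.82. The 6 marker genes of contractile smooth muscle (*Myh11*, *Acta2*, *Tagln*, *Cnn1*, *Smtn* and *Des*) summed to 8328 FPKM in WT 1 and 4852 FPKM in *Npr1*+/- 1, against 13196 to 14659 FPKM in the others, so that the defining markers of the vessel wall were present in each library. Adipocyte markers went the other way, at 2720 and 3414 FPKM against 431 to 959. Neuron markers, *Th* and *Dbh* among them, summed to 212 FPKM in *Npr1*+/- 1 and to at most 6.72 FPKM in any other library. Endothelial markers (*Pecam1*, *Cdh5*, *Tek*, *Tie1*, *Vwf* and *Kdr*) summed to 168, 116 and 196 FPKM in WT and to 295, 224 and 215 FPKM in *Npr1*+/- aortas without overlap. In bulk RNA, fewer cells of a type and less RNA per cell cannot be told apart. The total of estimated counts lay between 13510970 and 16664343 per library, so that 3 counts correspond to 0.18 to 0.222 CPM (counts scaled to a common library size).

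Of the 46 genes, 42 passed the filter on low counts and were tested among 13938 genes. *Itgad*, *Itgae*, *Itgb6* and *Fermt1* did not, with at most 2, 22, 2 and 7 counts in any library. *Itgad* and *Itgae* encode alpha subunits of leukocytes, and *Itgb6* and *Fermt1* are known from epithelia.

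**Figure D1:**
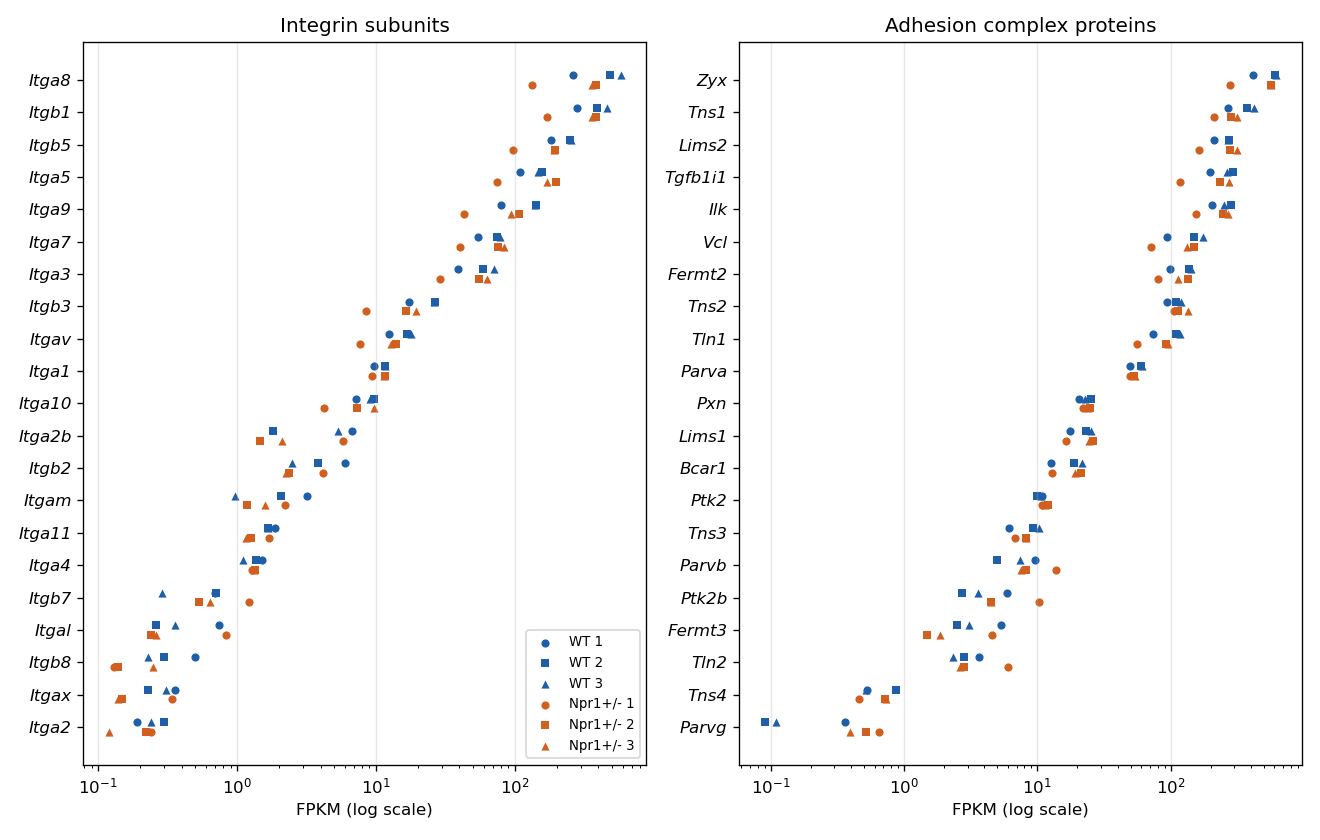
Level of the 42 tested genes in FPKM (log axis), integrin subunits on the left and adhesion complex proteins on the right, ordered by their mean in WT. Each symbol is 1 library, blue for WT and orange for *Npr1*+/-, with circles for number 1, squares for 2 and triangles for 3. The circles of the abundant genes lie to the left of the other symbols, and *Itga8*, *Itgb1*, *Zyx* and *Tns1* head the 2 panels.

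In the WT aorta several matrix-binding subunits were far above those known from blood cells, and the cells they came from were not tested. *Itga8*, the RGD-binding alpha 8 subunit that pairs with beta 1 and binds nephronectin and fibronectin, had the highest mean of the alpha subunits at 441 ± 162 FPKM (SD, n = 3). *Itga5*, the alpha subunit of the classical fibronectin receptor, followed at 138 ± 25.3 FPKM and *Itga9*, a receptor subunit for tenascin and osteopontin, at 120 ± 35.3 FPKM. The WT ranges of *Itga8* and *Itga5* were separate, while those of *Itga7* and *Itga3*, both laminin-binding, overlapped at 69.3 ± 12.7 and 56.6 ± 16.4 FPKM. Among the beta subunits *Itgb1* (377 ± 90.1 FPKM), the common partner of most matrix-binding alpha subunits, was above *Itgb5* (228 ± 40.6 FPKM) and *Itgb3* (23.5 ± 5.26 FPKM), both partners of alpha v, and all neighbours in that order had separate ranges. *Itgav* itself stood at 15.7 ± 2.87 FPKM, with a WT range that overlapped that of *Itgb3*. *Itga4*, shared by leukocytes and mesenchymal cells, was at 1.33 ± 0.214 FPKM, and *Itgb2*, the beta subunit of all leukocyte-specific integrins of the alpha L, M, X and D kind, at 4.11 ± 1.78 FPKM.

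In several families of adhesion complex proteins 1 paralogue was far above the others. *Tln1* was 34.1 times *Tln2* in WT (the ratio of FPKM within a library, as a geometric mean), *Fermt2* was 36.2 times *Fermt3*, and *Tns1* was 3.25 times *Tns2* and 41.9 times *Tns3*. *Lims2* (PINCH-2) exceeded *Lims1* (PINCH-1), which had 0.0869 of its level, and *Tgfb1i1* (Hic-5, a paxillin relative of smooth muscle) exceeded *Pxn*, at 0.0912 of its level. The kinases were closer, with *Ptk2* at 2.71 times *Ptk2b*. *Parva* was 8.02 times *Parvb* and 372 times *Parvg*, a parvin of blood cells. The highest mean of all 46 genes was that of *Zyx* at 548 ± 113 FPKM. Zyxin is recruited to actin fibres and adhesions under strain. In this order *Lims2* and *Ilk* overlapped (252 ± 33.7 and 247 ± 38.2 FPKM), as did *Vcl* and *Tln1* (140 ± 40.8 and 101 ± 24.1 FPKM).

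The promoters of 4 genes are shown because these genes stand high in their families and differ in the motifs they hold. Each is shown as the part of its RefSeq promoter on GRCm38.p6 that lies outside the annotated span of the gene, 5′ to 3′ on the strand of the gene, with capitals for a CArG box (the site of serum response factor), for CATTCC, the core of TEAD sites, and for GGGCGG, an Sp1 box, on either strand. *Vcl*, the vinculin gene, is shown at chr14:20929148-20929382 on the plus strand, *Itga8* at chr2:12301986-12302194 on the minus strand, *Itga5* at chr15:103366792-103367041 on the minus strand and *Itgb5* at chr16:33829415-33829664 on the plus strand.
Vcl: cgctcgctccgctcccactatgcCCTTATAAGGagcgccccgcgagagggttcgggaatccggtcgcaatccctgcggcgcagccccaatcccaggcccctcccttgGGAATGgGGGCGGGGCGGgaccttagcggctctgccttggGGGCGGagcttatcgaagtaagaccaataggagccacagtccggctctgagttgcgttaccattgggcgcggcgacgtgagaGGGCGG
Itga8: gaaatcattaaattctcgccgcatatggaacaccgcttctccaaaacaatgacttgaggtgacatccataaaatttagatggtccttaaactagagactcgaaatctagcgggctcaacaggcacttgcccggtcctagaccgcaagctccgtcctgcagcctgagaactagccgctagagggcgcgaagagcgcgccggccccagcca
Itga5: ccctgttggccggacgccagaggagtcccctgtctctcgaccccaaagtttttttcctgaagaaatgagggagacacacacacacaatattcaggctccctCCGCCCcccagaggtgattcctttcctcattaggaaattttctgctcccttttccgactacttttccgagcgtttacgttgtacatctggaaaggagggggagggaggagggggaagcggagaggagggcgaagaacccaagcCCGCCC
Itgb5: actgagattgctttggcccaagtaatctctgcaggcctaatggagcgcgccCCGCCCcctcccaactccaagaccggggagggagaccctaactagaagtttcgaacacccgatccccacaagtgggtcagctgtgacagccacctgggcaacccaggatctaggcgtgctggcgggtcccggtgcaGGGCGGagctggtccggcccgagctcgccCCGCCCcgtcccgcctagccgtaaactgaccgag
*Vcl* holds a CArG box near the 5′ end of the stretch shown, a TEAD core on the minus strand and several Sp1 boxes. *Itga5* and *Itgb5* hold Sp1 boxes only among these 3 motifs, and the bases shown for *Itga8* hold none of them. Over the 32 genes of the group with a usable RefSeq promoter, a CArG box within 250 bases was present in 3 (*Fermt2*, *Itgb6* and *Vcl*, 9.4%). Of all 27025 genes with a promoter, 1.6% held it. CATTCC was present in 3 (9.4% against 14.4%), GGGCGG in 17 (53.1% against 35.4%), and CAGACA, a SMAD-binding motif, in 7 (21.9% against 19.3%). These are matches of letters on both strands, not measured sites.

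No gene of the group was called between the genotypes. With the adjusted p required to be under 0.05 and the log2 fold change at least 0.5 in size, edgeR's quasi-likelihood test called 0 of the 42 genes, where it called 0% of all genes tested. DESeq2, which called 16 genes or 0.0942% of all genes with an adjusted p, called 0 of the group, and limma on log2(FPKM + 0.1) called 0 of the group and 0% of all genes. At an unadjusted p under 0.05 from edgeR, 0 of the 42 were lower in *Npr1*+/- aortas (1.08% of all genes) and 1, *Parvg*, was higher (2.38% against 1.88% of all genes), and DESeq2 and limma each gave 0 lower (0.932% and 1.06% of all genes) and *Parvg* higher (2.31% and 1.75% of all genes). The log2 fold change was negative in 29 of the 42 (69%), where 48.4% of all genes were negative, and its median was -0.20 where that of all genes was 0.01. Without *Npr1*+/- 1, the library with neuron markers and the lowest sum of smooth muscle markers, 25 were negative (59.5%, where 56.5% of all genes were) and the median was -0.04, beside -0.03 for all genes. That fit keeps WT 1. With both libraries numbered 1 left out, 30 were negative (71.4%), where 6836 of all 13938 genes were. The median was then -0.17, beside 0.01 for all genes. In the fit of all 6 libraries 18 of 21 integrin subunits were negative (median -0.31) and 11 of 21 complex proteins (median -0.01), a difference that was not tested. Without *Npr1*+/- 1 these medians were -0.30 and 0.04, and without both libraries numbered 1 they were -0.38 and -0.04.

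Libraries with the same replicate number deviated together, with correlations of 0.64, 0.39 and 0.24, so the number was also taken as a block. Libraries 2 and 3 with different numbers correlated as well, at 0.445 and 0.371. The shared shift is therefore mainly that of number 1, and numbers 2 and 3 were not shown to be pairs. With the block, edgeR's quasi-likelihood test called 0 of the 42 genes, and its smallest adjusted p over them was 0.124, for *Itgb3*, whose adjusted p under the other alternatives lay between 0.206 and 1. At an unadjusted p under 0.05 with the block, 7 of the 42 were lower in *Npr1*+/- aortas (16.7% against 5.09% of all genes), which were *Itgb3*, *Itga9*, *Itgav*, *Itgb5*, *Itga8*, *Fermt3* and *Itgb2*. Another 3 were higher (7.14% against 7.36% of all genes), which were *Ptk2b*, *Parvg* and *Parvb*. Without both libraries numbered 1 and without a block, 8 were lower (19% against 5.12%) and 2 higher (4.76% against 6.43%). With the block and without both libraries numbered 1, 6 were lower (14.3% against 3.52%) and 2 higher (4.76% against 5.37%). Without *Npr1*+/- 1 alone, 3 were lower (7.14% against 1.18%) and 0 higher (0% against 1.33%). No alternative called any of the 42 genes.

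**Figure D2:**
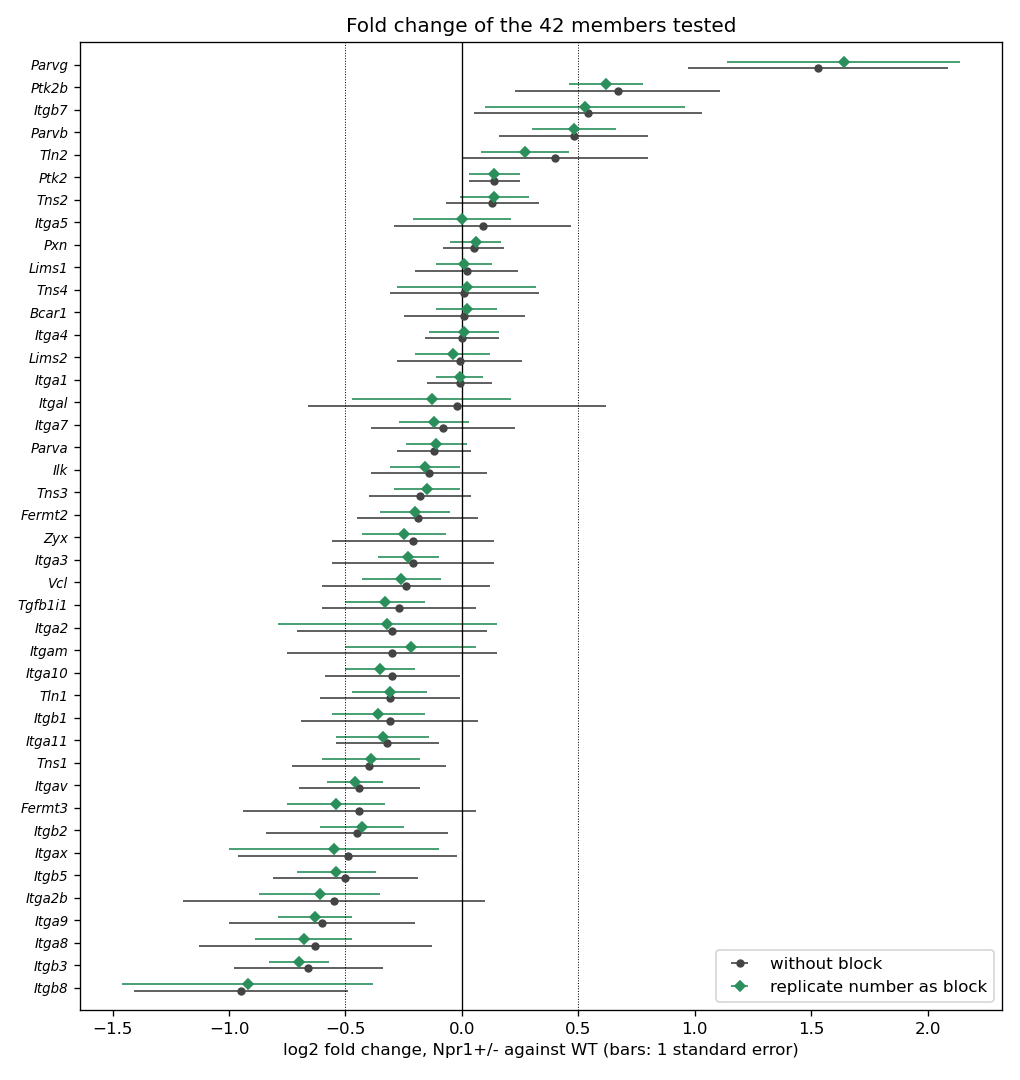
Log2 fold change of *Npr1*+/- against WT for the 42 tested genes, with 1 standard error, without a block (grey) and blocked by replicate number (green); dotted lines mark -0.5 and 0.5. *Parvg* lies furthest to the right at 1.53 and *Itgb8* furthest to the left at -0.95, and the bars of the block are the shorter ones for most abundant subunits.

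The beta 3 subunit had the smallest p of the integrins when the libraries were blocked. *Itgb3* (chromosome 11 of GRCm38 from 104608000 to 104670476) pairs with alpha v in the vessel wall and with alpha IIb in platelets. Its level was 17.4, 26.7 and 26.3 FPKM in the WT libraries and 8.48, 16.5 and 19.6 FPKM in the *Npr1*+/- libraries. Each *Npr1*+/- library was below the WT library of the same number, and the genotypes overlapped only through WT 1. Its log2 fold change was -0.66 ± 0.32 (unadjusted p = 0.0837, edgeR's quasi-likelihood test), and -0.70 ± 0.13 (unadjusted p = 0.000826, edgeR's quasi-likelihood test) with the block. It was -0.57 without both libraries numbered 1 and ranged from -0.88 to -0.40 over the fits that omit 1 library. *Itga2b*, the alpha IIb partner of platelets, followed its own pattern at 6.71, 1.81 and 5.38 FPKM in WT and 5.79, 1.47 and 2.11 FPKM in *Npr1*+/- aortas. The platelet marker list, which includes *Itga2b*, summed to 116, 37.8 and 68 FPKM in WT and 90.9, 26.8 and 52.4 FPKM in *Npr1*+/- aortas, and its part in the level of *Itgb3* was not tested.

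Alpha v and its beta partners *Itgb3*, *Itgb5* and *Itgb8* had negative log2 fold changes. *Itgb1*, the common partner of most matrix-binding alpha subunits, was not counted in this set and had -0.31 ± 0.38. *Itgav* (chromosome 2 from 83722303 to 83806917), the shared alpha subunit of the vitronectin receptors, was at 12.5, 16.9 and 17.8 FPKM in WT and at 7.75, 14.1 and 12.9 FPKM in *Npr1*+/- aortas, with a log2 fold change of -0.44 ± 0.26 (standard error). *Itgb5* (chromosome 16 from 33829665 to 33949338), which with alpha v binds vitronectin, was at 181, 249 and 254 FPKM against 97.7, 193 and 191 FPKM, with a log2 fold change of -0.50 ± 0.31. In both genes the lowest library was *Npr1*+/- 1, and the *Npr1*+/- library was lower at all 3 numbers. *Itgb8*, the beta subunit with which alpha v releases active TGF-beta, was near the limit of counting at 0.5, 0.3 and 0.23 FPKM in WT and 0.13, 0.14 and 0.25 FPKM in *Npr1*+/- aortas, with 6 to 21 counts per library and a log2 fold change of -0.95 ± 0.46. With the block, the unadjusted quasi-likelihood p was 0.00655 for *Itgav* and 0.014 for *Itgb5*. Without *Npr1*+/- 1 and without a block their log2 fold changes were -0.24 and -0.27, and without both libraries numbered 1 they were -0.38 and -0.40. The log2 fold changes of the 4 tested genes of this set had a median of -0.58, and -0.33 without *Npr1*+/- 1. Those of all 21 tested integrin subunits, this set included, had medians of -0.31 and -0.30. With both libraries numbered 1 left out, the medians were -0.43 for the set and -0.38 for all 21.

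The beta 1 subunit and the alpha subunits that pair with it had unlike values. *Itgb1* (chromosome 8 from 128685654 to 128733579) was at 279.8, 393 and 458 FPKM in WT and at 169.9, 385 and 358 FPKM in *Npr1*+/- aortas, with a log2 fold change of -0.31 ± 0.38 that was -0.04 without *Npr1*+/- 1 and -0.21 without both libraries numbered 1. *Itga8* (chromosome 2 from 12106632 to 12301985) was at 262, 481 and 578 FPKM against 133.7, 384 and 359.8 FPKM. In *Itga8* the libraries numbered 1 were the lowest of each genotype, and WT 1 lay below 2 of the *Npr1*+/- libraries, so that the genotypes overlapped. Its log2 fold change was -0.63 ± 0.50 (standard error), with an unadjusted quasi-likelihood p of 0.248 without and 0.0144 with the block, and it was -0.30 without *Npr1*+/- 1 and -0.57 without both libraries numbered 1. *Itga9* (chromosome 9 from 118606709 to 118901003) also had *Npr1*+/- 1 as its lowest library and WT 1 as the next, at 79.5, 141 and 139.8 FPKM in WT and 43, 108 and 94.6 FPKM in *Npr1*+/- aortas. The log2 fold change of *Itga9* was -0.60 ± 0.40, and with the block -0.63 (unadjusted p = 0.00528, edgeR's quasi-likelihood test). *Itga5* (chromosome 15 from 103344286 to 103366791) differed from both, at 109.6, 157 and 147.7 FPKM in WT and 74.2, 197 and 169.98 FPKM in *Npr1*+/- aortas. Here *Npr1*+/- 2 and 3 were the highest of all 6 libraries and *Npr1*+/- 1 was the lowest, and the log2 fold change was 0.09 ± 0.38, with a range from -0.20 to 0.39 when each library was left out.

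The ratio of *Itga5* to *Itga8* within a library needs no scaling between libraries. Its log2 was -1.26, -1.61 and -1.97 in WT and -0.85, -0.96 and -1.08 in *Npr1*+/- aortas, so that all *Npr1*+/- libraries were above all WT libraries. The mean ratio was 0.327 in WT and 0.512 in *Npr1*+/- aortas, a difference of 0.65 on the log2 scale that ranged from 0.47 to 0.83 over the sets that omit 1 library. In terms of the summed FPKM of the alpha subunits, *Itga5* made up 16.3% ± 2.36 (SD, n = 3) in WT and 21.6% ± 1.16 in *Npr1*+/- aortas, and *Itga9* 13.8% ± 0.833 and 12.1% ± 0.442, both without overlap. *Itga8* made up 49.6% ± 4.93 and 42.3% ± 3.91 with overlap. Of the summed FPKM of the beta subunits, *Itgb3* made up 3.7% ± 0.236 in WT and 3.07% ± 0.336 in *Npr1*+/- aortas without overlap. Each of the comparisons without overlap had an exact two-sided permutation p of 0.1, the smallest that 3 libraries against 3 allow, and over the 11 shares compared the adjusted p of these exact tests was 0.314. With 15 ratios of related genes compared, the smallest adjusted p was 0.375, and none could have been under 0.05 in this design.

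Because the libraries differed in smooth muscle markers, subunits were also set against the sum of those 6 markers within each library, a ratio added after the data were seen. Per 1000 FPKM of markers, *Itga8* had 31.5, 34.6 and 39.4 FPKM in WT and 27.6, 29.1 and 25.8 FPKM in *Npr1*+/- aortas. *Itgb3* had 2.09, 1.92 and 1.79 FPKM against 1.75, 1.25 and 1.41 FPKM, and *Itga9* had 9.54, 10.2 and 9.53 FPKM against 8.86, 8.16 and 6.79 FPKM. All 3 were lower in each *Npr1*+/- library than in any WT library, by differences of -0.35, -0.41 and -0.30 on the log2 scale (exact two-sided permutation p = 0.1 each, the smallest possible here). Over the sets that omit 1 library the difference ranged from -0.43 to -0.26 for *Itga8*, from -0.54 to -0.30 for *Itgb3* and from -0.39 to -0.20 for *Itga9*. They were the 3 of the 42 genes that lay lower without overlap on this scale (7.14%, against 0.591% of all genes), and 0 lay higher (0% against 1.66%). Dividing by a sum that is lowest in *Npr1*+/- 1 raises that library for any gene that does not follow the markers. Few genes could thus lie lower without overlap, and 0.591% is not an even background. In CPM, 3.58% of all genes and 0 of the 42 lay lower. *Itgb5* overlapped on this scale (-0.24), as did *Itgb1* (-0.06), *Itgav* (-0.16) and *Itga5* (0.30).

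**Figure D3:**
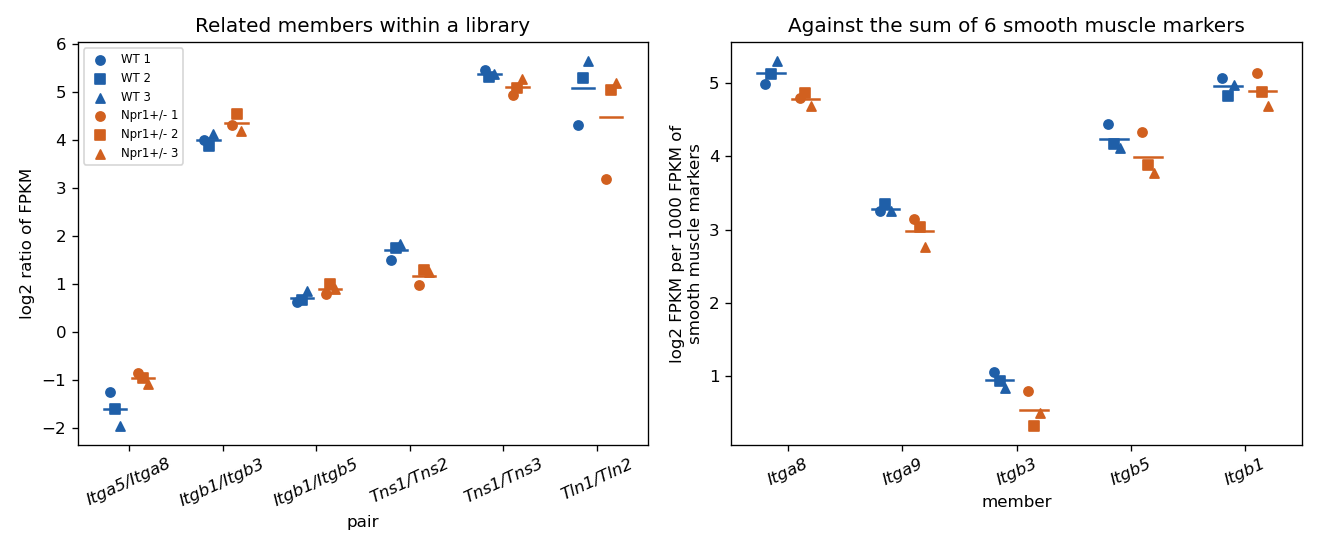
Left, log2 ratio of FPKM of related genes within each library. Right, log2 FPKM of 5 subunits per 1000 FPKM of the 6 smooth muscle markers. Symbols are libraries as in the plot of levels and lines are genotype means; the *Npr1*+/- values of *Itga5*/*Itga8* and *Itgb1*/*Itgb3* lie above all WT values, and those of *Tns1*/*Tns2*, *Tns1*/*Tns3* and, on the right, *Itga8*, *Itga9* and *Itgb3* below them.

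The collagen and laminin receptors had log2 fold changes between -0.32 and -0.01 in the subunits given here. *Itga1*, a collagen-binding subunit of smooth muscle, was at 9.74, 11.7 and 11.6 FPKM in WT and 9.37, 11.7 and 11.5 FPKM in *Npr1*+/- aortas, and its log2 fold change was -0.01 ± 0.14. *Itga10*, which binds collagen in cartilage and other connective tissue, was at 7.19, 9.73 and 9.09 FPKM against 4.21, 7.31 and 9.67 FPKM, with -0.30 ± 0.29. *Itga11*, a collagen receptor subunit of fibroblasts, was at 1.88, 1.67 and 1.67 FPKM against 1.69, 1.27 and 1.17 FPKM, with -0.32 ± 0.22. The genotypes overlapped in *Itga11* because *Npr1*+/- 1 was above 2 WT libraries, and without that library its log2 fold change was -0.54 (unadjusted p = 0.0364, edgeR's quasi-likelihood test). The laminin receptor subunits *Itga7* (54.7, 75.1 and 78.2 FPKM in WT, 40.2, 75.3 and 83.8 FPKM in *Npr1*+/- aortas) and *Itga3* (38.9, 59.5 and 71.4 FPKM, 28.9, 55.6 and 63.2 FPKM) had log2 fold changes of -0.08 and -0.21, and without *Npr1*+/- 1 of 0.16 and 0.03. Omitting both libraries numbered 1 gave 0.01 and -0.17. *Itga4* was at 1.52, 1.38 and 1.1 FPKM in WT and 1.29, 1.36 and 1.32 FPKM in *Npr1*+/- aortas, with a log2 fold change of 0.00 ± 0.16. Its exons share up to 905 bases with *Cerkl* on the opposite strand.

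Subunits of leukocytes were low and did not have the order of the smooth muscle markers. *Itgb2* was at 6, 3.84 and 2.48 FPKM in WT and 4.15, 2.37 and 2.25 FPKM in *Npr1*+/- aortas, lower at each of the 3 numbers (log2 fold change -0.45 ± 0.39). *Itgam*, which with beta 2 forms the complement receptor Mac-1, was at 3.19, 2.09 and 0.97 FPKM against 2.23, 1.18 and 1.59 FPKM. *Itgal*, the partner in LFA-1, was at 0.74, 0.26 and 0.36 FPKM against 0.83, 0.24 and 0.26 FPKM. The sum of 6 pan-leukocyte markers was 69.1, 40.5 and 25.8 FPKM in WT and 53.4, 32.1 and 36.9 FPKM in *Npr1*+/- aortas, highest in WT 1, as in *Itgb2* and *Itgam*. *Fermt3*, the kindlin of blood cells that activates beta 2 and beta 3 integrins, was at 5.32, 2.49 and 3.06 FPKM against 4.53, 1.49 and 1.87 FPKM, with a log2 fold change of -0.44 ± 0.50 and, with the block, -0.54 (unadjusted p = 0.0358, edgeR's quasi-likelihood test). *Itgb7*, which pairs with alpha 4 and alpha E on lymphocytes, was at 0.7, 0.71 and 0.29 FPKM against 1.22, 0.53 and 0.64 FPKM. The part of blood cells in these levels was not tested.

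**Figure D4:**
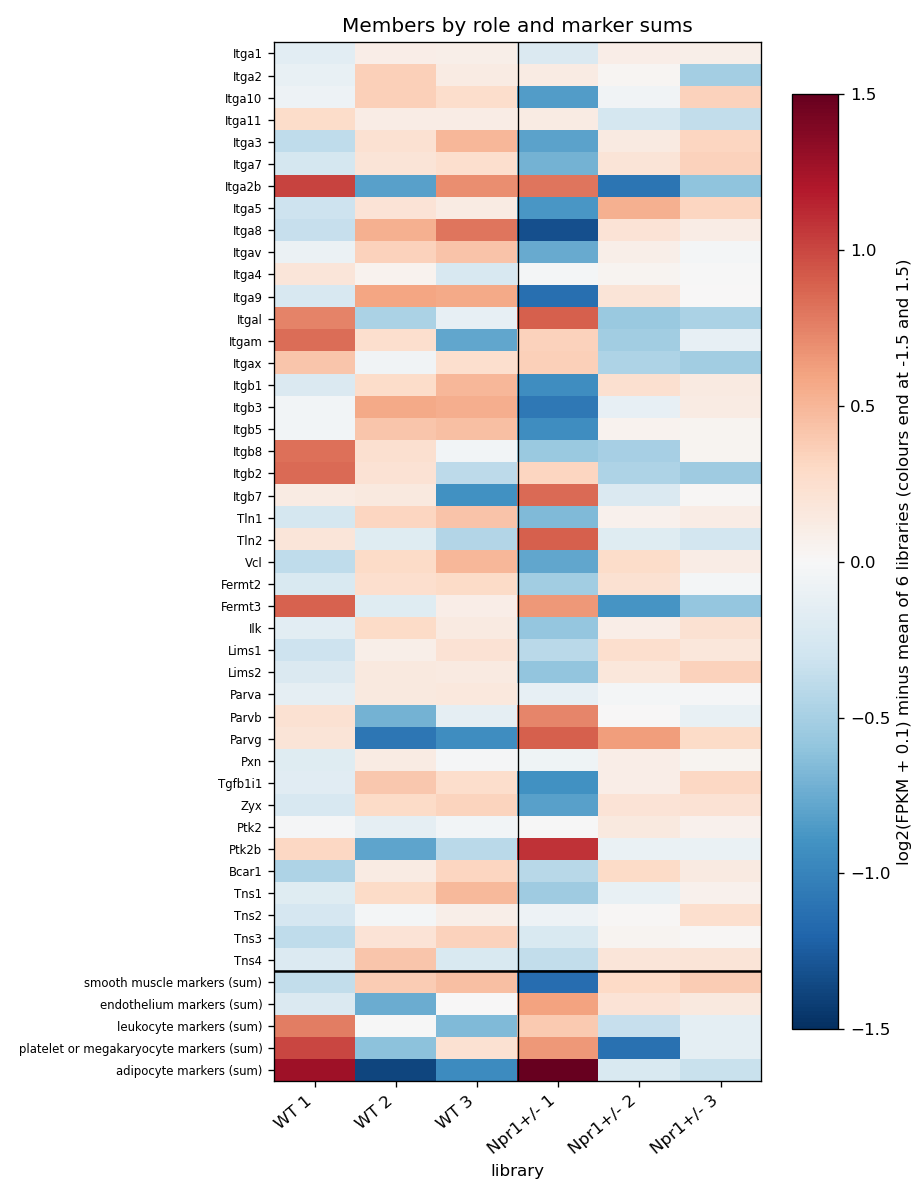
Log2(FPKM + 0.1) of each tested gene in each library minus its mean over the 6 libraries, with genes in the order of their roles and marker sums (log2 of the summed FPKM) under the black line; red is above and blue below the mean. *Npr1*+/- 1 is blue for most abundant subunits and for the smooth muscle markers (4852 FPKM), and WT 1 and *Npr1*+/- 1 are both red for *Fermt3*, *Itgal*, *Itga2b* and the adipocyte markers.

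The gamma and beta parvins and the kinase Pyk2 had positive log2 fold changes. *Parvg* (chromosome 15 from 84324175 to 84342978), whose product binds ILK in blood cells, was at 0.36, 0.09 and 0.11 FPKM in WT and 0.65, 0.52 and 0.39 FPKM in *Npr1*+/- aortas. The genotypes did not overlap, and the counts behind these values were 4 to 25 per library. The log2 fold change of *Parvg* was 1.53 ± 0.56 (standard error; edgeR's quasi-likelihood test gave an unadjusted p of 0.0313 and 0.999 after adjustment), 1.64 with the block, 1.34 without *Npr1*+/- 1 and 2.34 without WT 1. *Parvg* was the 1 gene of the 42 that the study had also picked out from these libraries, so its direction is not independent evidence. The study listed it at a q value under 0.05 with DESeq2, whereas no fit here, DESeq2 included, called it after adjustment. *Parvb*, an affixin that binds ILK and alpha-actinin, was at 9.59, 4.96 and 7.46 FPKM against 13.7, 8.21 and 7.58 FPKM, and its log2 fold change of 0.48 ± 0.32 was 0.15 without *Npr1*+/- 1 and 0.36 without both libraries numbered 1. *Ptk2b* (Pyk2), a calcium-responsive relative of focal adhesion kinase, was at 5.96, 2.71 and 3.57 FPKM against 10.2, 4.46 and 4.46 FPKM. It was higher in the *Npr1*+/- library of each number (log2 fold change 0.67 ± 0.44, and with the block 0.62 with unadjusted p = 0.00519, edgeR's quasi-likelihood test), and without *Npr1*+/- 1 the log2 fold change was 0.10. Omitting both libraries numbered 1 gave 0.48. *Ptk2*, focal adhesion kinase itself (chromosome 15 from 73205102 to 73423820), was the second gene without overlap, at 10.8, 9.96 and 10.7 FPKM in WT and 10.9, 12.1 and 11.4 FPKM in *Npr1*+/- aortas, a log2 fold change of 0.14 ± 0.11. In all, 0 of the 42 genes lay lower without overlap (3.58% of all genes) and 2 lay higher (4.76% against 3.9% of all genes). *Bcar1* (p130Cas), the stretch-sensitive scaffold they phosphorylate, was at 12.6, 18.9 and 21.6 FPKM against 13, 21.2 and 19 FPKM, with a log2 fold change of 0.01 ± 0.26.

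Among the linkers of integrin tails to actin, *Tln1*, *Vcl* and *Fermt2* had negative values and *Tln2* a positive one, none much above 1 standard error. *Tln1*, the talin of most tissues, was at 73.1, 110.4 and 118 FPKM in WT and 55.7, 92.3 and 95.6 FPKM in *Npr1*+/- aortas, with a log2 fold change of -0.31 ± 0.30. *Vcl* was at 94.5, 150.3 and 174 FPKM against 71.7, 149 and 133 FPKM, with -0.24 ± 0.36. *Fermt2*, the kindlin of mesenchymal cells, was at 98.8, 138 and 142 FPKM against 81, 136 and 113 FPKM, with -0.19 ± 0.26. *Tln2*, the talin of muscle and brain, was at 3.66, 2.82 and 2.34 FPKM against 6.05, 2.81 and 2.62 FPKM, with 0.40 ± 0.40, and -0.23 without *Npr1*+/- 1, its highest library. In the other 3 genes *Npr1*+/- 1 was the lowest library and WT 1 the next, and without *Npr1*+/- 1 their log2 fold changes were between -0.12 and -0.01. Omitting both libraries numbered 1 gave values between -0.30 and -0.18. The exons of *Vcl* share up to 2090 bases with *Ap3m1* and those of *Tln1* up to 360 bases with *Creb3*, both on the opposite strand. In all, 12 of the 46 genes share exon bases with another coding gene. For *Itga1*, *Itga10* and *Itgam* that gene lies on the same strand, so strand could not tell the shared reads apart. For the rest, shared reads could not be told apart where strand was not kept.

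*Ilk*, the pseudokinase at the centre of its complex, *Lims2* and *Tgfb1i1* had WT means between those of *Itgb5* and *Itgb1*. *Ilk* was at 206, 282 and 252 FPKM in WT and 153.7, 246 and 269 FPKM in *Npr1*+/- aortas (log2 fold change -0.14 ± 0.25), and *Lims2* at 213, 273 and 270.3 FPKM against 164, 278 and 315 FPKM (-0.01 ± 0.27). *Tgfb1i1* was at 197, 293 and 266 FPKM against 117, 236 and 273 FPKM (-0.27 ± 0.33), and *Zyx* at 418, 603 and 622 FPKM against 280.1, 568 and 569.5 FPKM (-0.21 ± 0.35). *Npr1*+/- 1 was the lowest library in each of these 4 genes, and without it their log2 fold changes were between -0.01 and 0.20. Omitting both libraries numbered 1 gave values between -0.15 and 0.10. Among the tensins, which bind beta tails and actin in mature adhesions, *Tns1* (chromosome 1 from 73910232 to 74124548) was at 269, 372 and 425 FPKM in WT and 209.9, 282 and 317 FPKM in *Npr1*+/- aortas, lower at all 3 numbers (log2 fold change -0.40 ± 0.33). *Tns2* was at 94.4, 109.9 and 120 FPKM against 106.6, 114 and 134 FPKM, higher at all 3 numbers (0.13 ± 0.20). The log2 ratio of *Tns1* to *Tns2* was 1.51, 1.76 and 1.83 in WT and 0.98, 1.3 and 1.24 in *Npr1*+/- aortas without overlap, a difference of -0.53 (exact two-sided permutation p = 0.1, adjusted p = 0.375 over the 15 ratios). The ratios of *Tns1* to *Tns3* (-0.28) and of *Itgb1* to *Itgb3* (0.35) did not overlap either, with the same p values in the exact test.

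In most of these genes the libraries numbered 1 lay at one end of the 6. They were in 23 of the 42 genes (54.8%) the 2 lowest of the 6 libraries, where this held for 24.1% of all genes, and in 10 (23.8% against 23.9%) they were the 2 highest. By role, this low pattern held for 10 of 21 integrin subunits and 13 of 21 complex proteins. The sum of smooth muscle markers had the same order, and its part in these levels was not tested. Of the tested genes not given above by library, *Itga2*, *Itgax*, *Lims1*, *Parva*, *Pxn*, *Tns3* and *Tns4*, the log2 fold changes lay between -0.49 (*Itgax*) and 0.05 (*Pxn*).

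Other genes of adhesion were read from 2 lists. Of 38 further adhesion complex and regulator genes, edgeR's quasi-likelihood test called 0, and at an unadjusted p under 0.05 there were 0 lower (against 1.08% of all genes) and 1 higher (2.63% against 1.88%), with a median log2 fold change of -0.08. Blocked by replicate number, 4 were lower (10.5% against 5.09%) and 2 higher (5.26% against 7.36%). With both libraries numbered 1 left out and no block, 2 were lower (5.26% against 5.12%) and 1 higher (2.63% against 6.43%). Adding the block to that gave 1 lower (2.63% against 3.52%) and 1 higher (2.63% against 5.37%). Omitting *Npr1*+/- 1 alone gave 0 lower (against 1.18%) and 0 higher (against 1.33%). Among those with the smallest p were *Fyn*, a kinase of the Src family (0.41 ± 0.16, unadjusted p = 0.0385, edgeR's quasi-likelihood test) and *Svil*, the actin- and myosin-binding supervillin (-0.62 ± 0.29). *Fyn* was at 9.01, 8.21 and 7.06 FPKM in WT and 11.1, 11.6 and 9.19 FPKM in *Npr1*+/- aortas, without overlap on this scale. *Svil* was at 21.5, 35.9 and 34.1 FPKM against 13.6, 24.3 and 21.8 FPKM, lower at all 3 numbers.

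Of 21 genes of integrin ligands, 0 were called by edgeR, 0 were lower (against 1.08% of all genes) and 3 higher (14.3% against 1.88%) at an unadjusted p under 0.05, and the median log2 fold change was -0.15. With the block 5 were lower (23.8% against 5.09%) and 3 higher (14.3% against 7.36%), and without both libraries numbered 1 and without a block 3 were lower (14.3% against 5.12%) and 2 higher (9.52% against 6.43%). Adding the block to that gave 1 lower (4.76% against 3.52%) and 2 higher (9.52% against 5.37%). Omitting *Npr1*+/- 1 alone gave 0 lower (against 1.18%) and 1 higher, *Icam1* (4.76% against 1.33%). *Icam1*, the counter-receptor of the beta 2 integrins on endothelium, was at 10.8, 7.53 and 9.37 FPKM in WT and 15.8, 11.95 and 14.6 FPKM in *Npr1*+/- aortas, without overlap (log2 fold change 0.62 ± 0.19, unadjusted p = 0.0132, edgeR's quasi-likelihood test). The sum of the endothelial markers was higher without overlap as well, although *Cdh5*, *Tek* and *Kdr* among them overlapped. The part of endothelium in the value of *Icam1* was not tested. *Vtn*, vitronectin, the ligand of alpha v with beta 3 or beta 5, was at 1.19, 0.62 and 0.55 FPKM against 4.37, 1.44 and 1.43 FPKM (1.65 ± 0.59), and 0.85 on the log2 scale without *Npr1*+/- 1. *Edil3*, an RGD protein that binds the same receptors, had 1 to 56 counts per library (2.21 ± 0.85, and 1.31 without *Npr1*+/- 1). *Vtn* was chosen by the study on these libraries, so its direction is not independent evidence, and *Icam1* was named by it as well. Both are among the 3 higher ligand genes, and the list was made with earlier results known. The share of higher ligand genes is therefore not independent evidence either. In CPM, 2 of the 21 ligand genes, *Lama2* (-0.47) and *Col1a1* (-0.62), lay lower without overlap (9.52% against 3.58% of all genes). Another 3, *Icam1*, *Vtn* and *Edil3*, lay higher without overlap (14.3% against 3.9% of all genes). *Fn1*, fibronectin, which *Itga5* and *Itga8* receptors bind, was at 169.8, 377 and 343 FPKM in WT and 167, 359 and 250.1 FPKM in *Npr1*+/- aortas, with a log2 fold change of -0.19 ± 0.43. *Npnt*, nephronectin, the ligand of the alpha 8 receptor, had -0.27 ± 0.41.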

How the data were processed

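Libraries of whole aorta RNA (3 WT, 3 *Npr1*+/-) were used. The authors filtered the reads with SOAPnuke, mapped them with Bowtie2 to coding genes and ran RSEM, which divides a read among the genes it fits. The deposited estimated counts are not normalized, and 31.85% of all their values, zeros included, are not whole. The deposited FPKM are scaled by RSEM for transcript length and library size. The submitters' processing notes name mm10 and DESeq2 1.4.5. Whether strand was kept is not stated. The 4 columns of the authors' means were not used. Genes carry NCBI identifiers, and positions are RefSeq gene spans on GRCm38, with strand and shared exons from GENCODE M21.

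Counts were rounded and tested in R 4.3.3 with edgeR 4.0.16 (TMM, filter with a minimum count of 10, quasi-likelihood test, Benjamini-Hochberg over 13938 genes). Standard errors are the log2 fold change divided by the square root of F. The test was also run on simulated counts. The planted changes were larger than the main fit gave for any gene of the group, and the libraries numbered 1 shared no shift. That run therefore cannot tell how the test does on smaller changes or under such a shift. Each library's total lay between 13510970 and 16664343 counts; values below 3 counts were taken as the floor, which covers counting error only. Ratios used FPKM within a library and exact two-sided permutation tests. Alternatives were DESeq2 1.42.0, its size factors, no filter, limma 3.58.1 on log2(FPKM + 0.1) or log2(FPKM + 1), leaving out libraries, and the replicate number as a block. The numbers come from the sample titles, and deviations from the genotype mean correlated at 0.64, 0.39 and 0.24 between libraries with the same number. All are over 0.1, the limit used for a pairing. Libraries 2 and 3 with different numbers correlated at 0.44 and 0.37, so the shift is mainly that of number 1. Genes given by library were the 2 highest of each role, the 12 with the smallest p and those without overlap. The 46 genes and all lists were chosen with earlier results of these data known. Ratios to smooth muscle markers, shares of subunits, and the block without both libraries numbered 1 were added after the data were seen. Protein sequences were not used here. One gene of the lists is not reported here.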

Additional observations from a re-analysis of the deposited data

How the results depend on the processing

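Blocked by replicate number, edgeR's quasi-likelihood test called 0 of the 42 genes, 7 were lower and 3 higher at an unadjusted p under 0.05 (0 and 1 without the block). The block took the other adhesion genes from 0 to 4 lower and from 1 to 2 higher, and the ligands from 0 to 5 lower. With both libraries numbered 1 left out in addition, 1 gene of each of these lists was lower. The block took *Npr1* from an unadjusted quasi-likelihood p of 0.178 to 0.0221, and it made no call after adjustment. Of 1196 alternatives, 62 turned the direction of a gene, 4 turned the sign of a ratio and 36 moved a count or value beyond its limit. The other 1094 kept their direction and side of the threshold, or for counts stayed within 1.5 times and for ratios within 1 SD. The cause was not tested. No alternative called a gene of the group. The counts at an unadjusted p under 0.05 were 8 lower and 2 higher without both libraries numbered 1, 6 and 2 with the block in addition, and 0 higher without both libraries numbered 2 or both numbered 3. With each library left out in turn they lay between 0 and 3 lower (3 without *Npr1*+/- 1, 2 without WT 1) and between 0 and 1 higher. The count of 1 higher became 0 without WT 2, WT 3, *Npr1*+/- 1 or *Npr1*+/- 2. The median log2 fold change ranged from -0.23 to -0.04, the latter without *Npr1*+/- 1.

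The genes whose direction turned had log2 fold changes from -0.30 (*Itgam*) to 0.40 (*Tln2*), and none had an unadjusted p under 0.05 with all 6 libraries. With each library left out in turn, log2 fold changes ranged from -0.10 to 0.06 for *Itga1*, from -0.43 to 0.03 for *Itga3*, from -0.12 to 0.10 for *Itga4*, from -0.20 to 0.39 for *Itga5*, from -0.26 to 0.16 for *Itga7*, from -0.89 to 0.49 for *Itgal*, from -0.65 to 0.14 for *Itgam*, from -0.27 to 0.04 for *Ilk*, from -0.17 to 0.20 for *Lims2*, from -0.38 to 0.03 for *Zyx*, from -0.23 to 0.64 for *Tln2*, from -0.13 to 0.17 for *Lims1*, from -0.03 to 0.11 for *Pxn*, from -0.13 to 0.27 for *Tns4*, from -0.52 to 0.02 for *Fn1*, from -0.49 to 0.02 for *Npnt* and from -0.19 to 0.19 for *Bcar1*. Without both libraries numbered 1 they were 0.01 for *Itga7*, 0.10 for *Lims2*, -0.03 for *Bcar1*, -0.04 for *Tln2* and -0.00 for *Pxn*, and with the block in addition 0.01, 0.10, -0.02, -0.03 and -0.00. Without both numbered 2 they were -0.02 for *Itga4*, -0.12 for *Itga5*, -0.10 for *Lims1* and -0.13 for *Bcar1*, and without both numbered 3 they were 0.03 for *Itga1*, -0.08 for *Itga4*, -0.21 for *Tns4* and 0.13 for *Itgal*. *Itga4* and *Tns4* each gave -0.01 with no filter and -0.00 in limma on log2(FPKM + 1), *Itga5* -0.01 in each limma fit, and *Bcar1* -0.00 with no filter. The log2 ratio of *Tln1* to *Tln2* turned from -0.61 to 0.02 and that of *Lims1* to *Lims2* from 0.05 to -0.03 without *Npr1*+/- 1, and that of *Fermt2* to *Fermt3* from 0.35 to -0.13 without WT 1 and -0.14 without *Npr1*+/- 2. *Itgb8* and *Parvg* are limited by depth, with 6 to 21 and 4 to 25 counts.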
